A study of Mus musculus with 24 samples.

Results

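Loss of the transcription factor gene Tal1 was examined in 1 sorted population of mouse bone marrow, the CD135-negative, Rag2-GFP-negative cells that the labels call HSC. The comparison takes 6 of the 24 libraries of the study, 3 labelled Tal1KO (here KO) and 3 labelled Ctrl, chosen by their genotype, CD135 gate and reporter gate, and it was read across all genes. KO cells had the genotype VaviCre Tal1F/F Rag2GFP, in which a Cre recombinase under a Vav promoter, active in blood cells, acts on 2 floxed Tal1 alleles. Ctrl cells are labelled wild type, carry the same floxed alleles and the same Rag2GFP reporter, and have no Cre named. Presence of Cre and deletion of Tal1 therefore cannot be told apart in this design. All were LSK cells, the Sca1-positive Kit-positive fraction of marrow that holds stem and early progenitor cells. The labels give no age or sex and do not state that each replicate is its own animal. The p-values therefore describe the spread among libraries, part of which may be technical. Except where a fit of these 6 alone or a permutation test is named, that spread is pooled over all 24 libraries.

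TAL1 is a basic helix-loop-helix protein that binds E-box DNA together with an E protein such as TCF3. It forms complexes with LMO2, LDB1 and GATA1 or GATA2, often where an E-box lies next to a GATA motif. It is required to form blood stem cells in the embryo and, in the adult, for red cell and megakaryocyte maturation, while its relative LYL1 covers part of its role in stem cells. Mast cells mature outside the marrow from rare progenitors that depend on GATA2 and the receptor KIT, and store proteases in their granules.

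Values are the authors' normalised counts for 17149 genes. The 6 libraries had totals of 6906083 to 8704419 and between 15226 and 15957 genes above 1. Between 0 and 1530 genes were listed at 0, and mitochondrially encoded genes took 19.54 to 28.43% of the total. Replicates correlated at Pearson's r of 0.894 to 0.951 in Ctrl and 0.936 to 0.947 in KO on the log2 scale, across genes, which are not independent. The gate markers followed the labels. Flt3, which encodes CD135, averaged 796.5 ± 220.3 normalised counts in Ctrl HSC and 4586 ± 196.4 in Ctrl LMPP, the CD135-positive cells of the same reporter gate (SD, n = 3 each). Rag2, the gene of the reporter, averaged 27.8 ± 21.8 here and 456.5 ± 145.3 in GFP-positive Ctrl HSC (SD, n = 3 each). Kit, the stem cell factor receptor, and Ly6a, which encodes Sca1, were present in all 6 libraries at 5460 to 8066 and at 117.5 to 294.4, and KO and Ctrl overlapped for both. Defining genes of mature T cells were near 0 or under the limit for testing, with Zap70 between 0 and 0.0561 and Cd3e below that limit.

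Tal1 (ENSMUSG00000028717, 4:115056426-115071755, plus strand, GRCm38/mm10) was listed at 1746, 2109 and 1523 normalised counts in Ctrl replicates 1 to 3 and at 322, 518 and 253 in KO replicates 1 to 3. Every KO library lay below every Ctrl library, and transcript was left in each. The log2 difference, KO minus Ctrl, was -2.34 ± 0.70 (SE), on a scale of log2(value + 4.1) that understates changes of genes near 0. It did not pass limma's test across all genes (adjusted p = 0.418), in which the spread is pooled over 24 libraries. It passed when the model was fitted to these 6 libraries alone (adjusted p = 0.000799 over the 13809 genes that meet the filter in them, and 0.0154 over the 16215 genes tested here). An exact two-sided permutation test gave p = 0.1, the smallest that the 20 splits of 6 libraries allow. The labels do not state which exons the floxed alleles lose, so remaining reads of deleted alleles and reads of intact ones cannot be told apart.

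None of the 17 tested genes of TAL1, its complex partners, E proteins and Id inhibitors passed. KO lay below Ctrl without overlap in 5 (29.4%, against 6.03% of all genes), Tal1 among them, and above in 2 (11.8%, against 6.66%). Lyl1, the closest relative, was lower in all 3 KO libraries, at 593, 392 and 477 against 853, 840 and 620 (log2 -0.66). Cbfa2t3, a corepressor of the complex (ETO2), was listed at 651, 764 and 545 in KO against 1505, 1234 and 1202 in Ctrl (log2 -1.01, adjusted p = 0.768). Lmo2, the LIM-domain bridge, showed the smallest separation of these, with 2480, 2311 and 2032 against 2812, 2770 and 3318 (log2 -0.38). Gata2 went the other way, at 4478, 5148 and 2142 in KO against 1883, 1486 and 1494 in Ctrl (log2 1.19 ± 1.14, adjusted p = 1). Id2, an inhibitor of E proteins, was listed at 174, 163 and 24.1 in KO against 11.3, 1.62 and 0.997 in Ctrl (log2 3.62 ± 0.86, adjusted p = 0.0951). For Gata2 and Id2 the third KO library was the one nearest to Ctrl. Gata1 and Tcf3 overlapped between genotypes, with log2 differences of 0.16 and -0.11.

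With limma on all 24 libraries, 26 of 16215 tested genes passed at an adjusted p under 0.05, which is 0.16%, and 557 had an unadjusted p under 0.05 (3.44%). Of these, 22 rose in KO (0.136%) and 4 fell (0.0247%). The split was 19 higher and 7 lower after rescaling by size factors, and 26 higher and 14 lower after quantile normalisation. In all 26 the KO libraries did not overlap the Ctrl libraries, which held for 12.7% of all tested genes. The median log2 difference over all tested genes was 0.02. The largest log2 rises were of granule proteases, globins rose as well, and the falls included the G-CSF receptor gene Csf3r. In 11 of the 22 rises every Ctrl library lay below the added constant of 4.1, so the size of those differences depends on that constant. The filter asked for 1 ppm in 3 libraries, and 10 of the 26 met it only with the help of the KO libraries compared here, as did 309 of all 16215 genes. Such genes had to be high in KO to be tested, and they include Mcpt1, Mcpt2, Tpsb2, Kif26b and Il6. KO replicate 3 had the lowest value of the KO libraries in 20 of the 22. The number that passed was 43 without KO replicate 3, 3 without KO replicate 1 and 2 without KO replicate 2. It was 10, 8 and 11 without Ctrl replicate 1, 2 or 3. In a fit of these 6 libraries alone 53 of 13809 genes passed, and 15 of the 26 were among them. With the 16215 genes of the 24-library filter, 15 genes passed in these 6 libraries, and 5 of the 26 were among them: Gzmb, Kif26b, Hbb-bs, Hbb-bt and Hba-a1. Genes outside both counts included Hes1, Mcpt2, Mcpt1 and Adgrl4 (adjusted p = 0.0587, 0.0717, 0.337 and 0.0699).

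**Figure D1:**
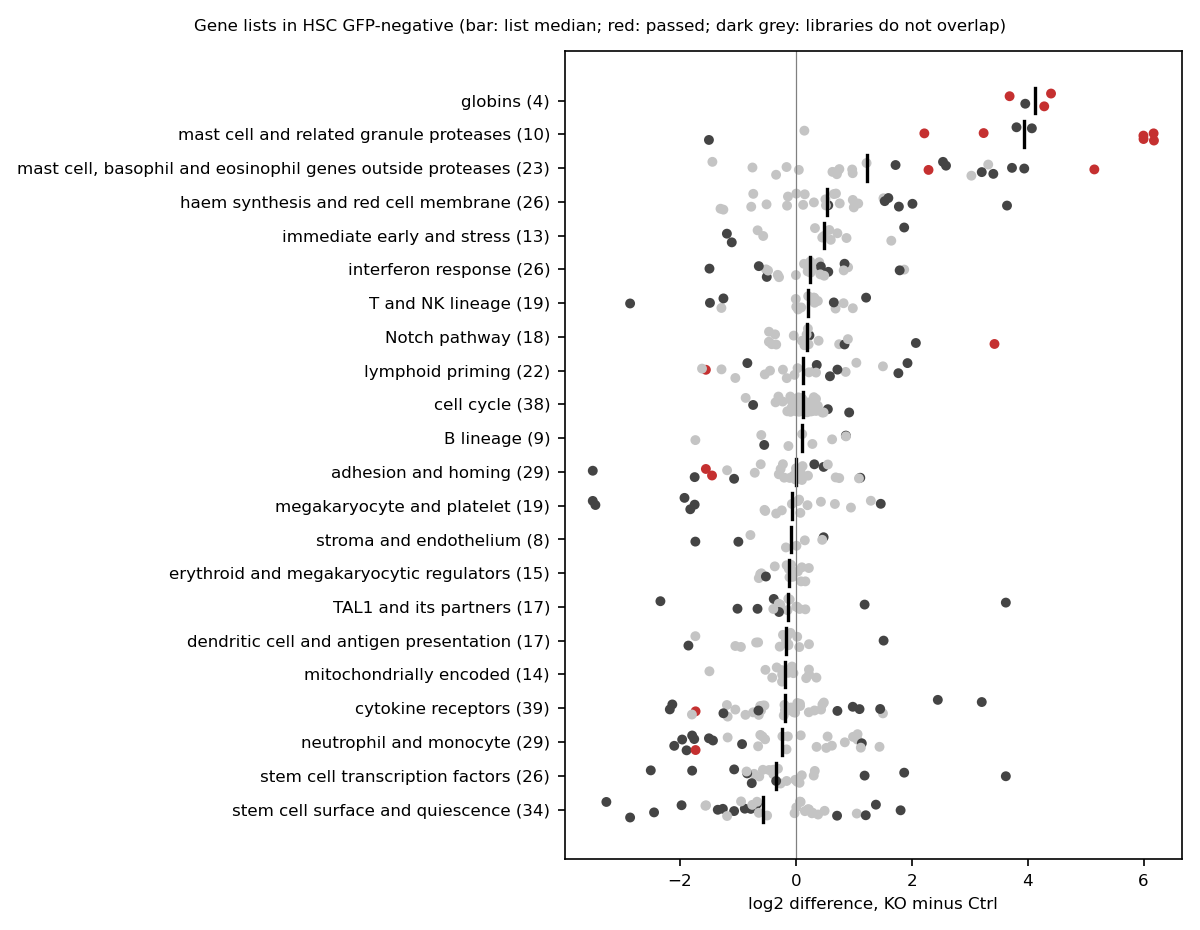
Log2 difference, KO minus Ctrl, of every tested gene (points) in 22 gene lists (rows, with the number of tested genes in brackets) in GFP-negative HSC. Red points passed limma's test, dark grey points did not pass but have no overlap between the 3 KO and 3 Ctrl libraries, and black bars mark list medians, which run from -0.57 for stem cell surface and quiescence genes to 4.12 for globins.

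Granule proteases made up the largest block of rises. Of 10 tested proteases of mast cells and related granulocytes, 6 rose and none fell. KO lay above Ctrl without overlap in 8 of 10 (80%), against 6.66% of all genes, and the median log2 difference was 3.94. These are descriptions, since 4 of the 10, with Mcpt1, Mcpt2 and Tpsb2 among them, were tested only through the KO libraries. Mcpt4, a mast cell chymase, was listed at 0.0983, 0 and 0 in Ctrl and at 816, 687 and 43.2 in KO, and rose with a log2 difference of 6.18 ± 0.89 (adjusted p = 0.00139). Ctrl cells thus held next to none of this transcript, while KO replicate 3 held far less than the other KO libraries. Cma1, a second chymase, went from 2.59, 2.83 and 2.99 to 1516, 1020 and 75.3 (log2 6.17 ± 1.12, adjusted p = 0.0119). Tpsb2, a tryptase, was at 3.83, 0 and 0 in Ctrl and at 1276, 1120 and 20.1 in KO (log2 6.0 ± 1.14, adjusted p = 0.0181). The same library order held for both: KO replicates 1 and 2 were high and replicate 3 was the nearest to Ctrl. Gzmb, granzyme B, a serine protease of cytotoxic lymphocytes that mast cells can also make, was at 6.31, 2.83 and 9.98 in Ctrl and at 839, 1098 and 282 in KO. It rose by a log2 difference of 6.0 ± 0.72 (adjusted p = 0.000142), the smallest adjusted p of the comparison. Mcpt2 and Mcpt1, chymases of mucosal mast cells, differed in their order. Mcpt2 was at 15.7, 60.9 and 41.9 in KO and at 0.0735, 0 and 0 in Ctrl (log2 3.24 ± 0.44, adjusted p = 0.000869). Mcpt1 was at 8.86, 11.2 and 31.3 in KO and at 0.0538, 0 and 0 in Ctrl (log2 2.22 ± 0.39, adjusted p = 0.0114). Here KO replicate 3 was not the lowest library, and for Mcpt1 it was the highest. No other library of the study reached 1 ppm for either gene. Both passed with no filter on low values (adjusted p = 0.000445 for Mcpt2 and 0.00719 for Mcpt1), in a fit that still pools the spread over 24 libraries. Neither passed in limma's fit of these 6 libraries over the genes of the 24-library filter (adjusted p = 0.0989 for Mcpt2 and 0.276 for Mcpt1). The longest annotated transcripts of Mcpt1, Mcpt2 and Mcpt4 are 79.9 to 85.6% identical, so reads may have been split among them.

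Cpa3, the mast cell carboxypeptidase, was present in Ctrl and did not pass. It was listed at 123, 217 and 351 in Ctrl and at 5451, 5465 and 1587 in KO (log2 4.07 ± 1.03, adjusted p = 0.159). The KO libraries lay well above Ctrl, and the gene passed when the 6 libraries were fitted alone (adjusted p = 0.000482, or 0.0181 over the genes of the 24-library filter). Tpsg1, a membrane-bound tryptase, was at 188, 196 and 0.919 in KO and at 0.0915, 0 and 0 in Ctrl (adjusted p = 0.196). Mcpt8, a protease of basophils, overlapped, with 18.7, 27.1 and 38.9 in Ctrl and 48.6, 35.7 and 15.6 in KO. Ctsg, cathepsin G of neutrophil precursors, was the protease with KO below Ctrl, at 94, 156 and 139 against 328, 607 and 249 (log2 -1.50 ± 0.82). Summed over the 11 proteases in the table, the level was 55.5 to 98.4 ppm of the library total in Ctrl. It was 1292 and 1293 ppm in KO replicates 1 and 2 and 324 ppm in KO replicate 3. The list median was 5.47 with a smaller added constant (0.1 ppm), 3.23 with a larger one (2 ppm) and 6.08 without KO replicate 3.

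**Figure D2:**
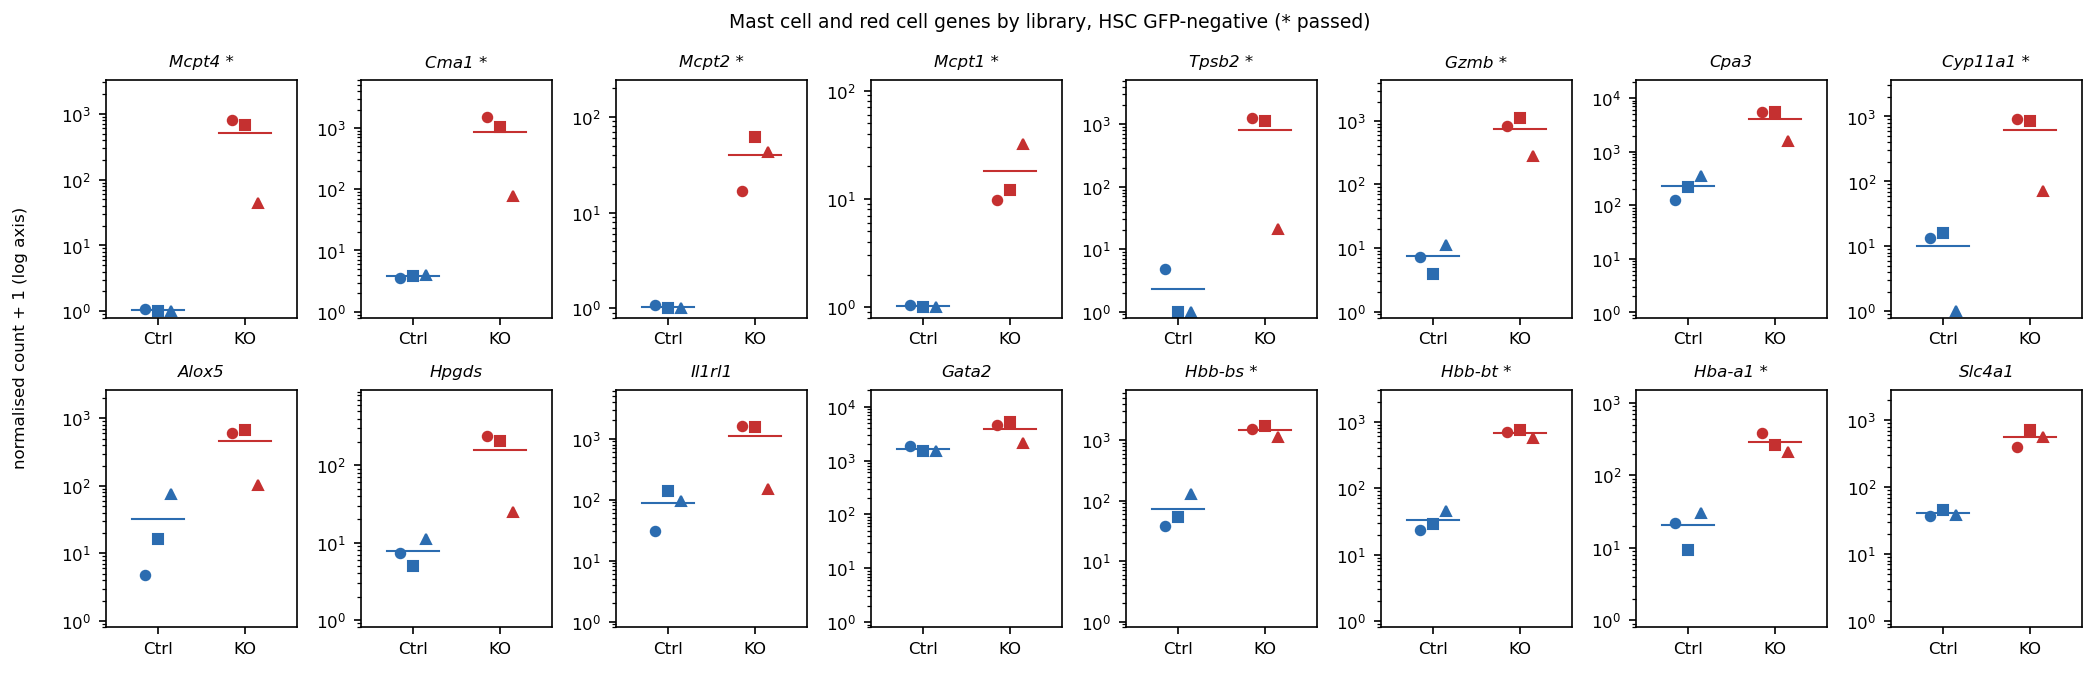
Normalised counts plus 1 (log axis) of 16 mast cell and red cell genes in the 3 Ctrl (blue) and 3 KO (red) libraries of GFP-negative HSC, where circle, square and triangle are replicates 1, 2 and 3, lines are means and an asterisk marks genes that passed. For Mcpt4, Cma1, Tpsb2 and Cyp11a1 the third KO library lies between the other KO libraries and Ctrl, while for the globins the 3 KO libraries lie together.

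The genes Cma1, Mcpt1, Mcpt2, Mcpt4 and Gzmb lie in 1 stretch of chromosome 14 (14:55941451-56262260, 320.8 kb, GRCm38/mm10). The annotation holds 26 genes there, 15 of them protein coding, of which 7 were tested, with Mcpt8 and Ctsg beside the 5 that passed. Within 1 Mb on either side of the stretch 52 genes were tested. The 47 that did not pass had a median log2 difference of -0.08. Without overlap, KO lay above Ctrl in 2 of these 47 and below in 3, against 6.66% and 6.03% of all genes. Ctsg, with the opposite sign, lies between Mcpt4 and Gzmb.

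**Figure D3:**
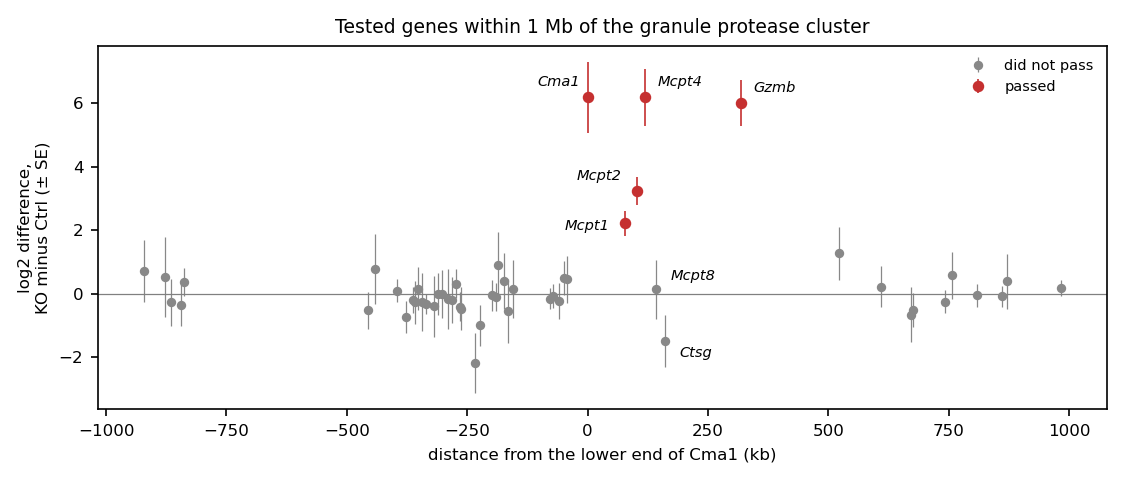
Log2 difference, KO minus Ctrl (± SE), of the 52 tested genes within 1 Mb of the granule protease stretch against their distance in kb from the lower end of Cma1. Red points passed: Cma1, Mcpt1, Mcpt2, Mcpt4 and Gzmb, at 2.22 to 6.18, among grey genes spread around 0.

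The bases just before these genes are shown because the passing genes of the stretch all rose and TAL1 complexes are known from E-box and GATA motifs. Each run is the 250 bases before the gene's start in RefSeq (GRCm38.p6), 5′ to 3′ on the gene's own strand. Capitals mark the E-box CANNTG and, on either strand, the GATA forms AGATAA or AGATAG with A in front and TGATAA or TGATAG with T in front. No E-box overlaps a GATA form in the runs shown. For Mcpt1 and Gzmb the bases after the RefSeq start were not found in a GENCODE transcript, so the 2 annotations place the start differently. The runs are Mcpt4 chr14:56062311-56062560 (minus strand), Mcpt1 chr14:56017714-56017963 (plus), Cma1 chr14:55944676-55944925 (minus), Gzmb chr14:56262335-56262584 (minus), Ctsg chr14:56102575-56102824 (minus) and Cpa3 chr3:20242182-20242431 (minus).
Mcpt4: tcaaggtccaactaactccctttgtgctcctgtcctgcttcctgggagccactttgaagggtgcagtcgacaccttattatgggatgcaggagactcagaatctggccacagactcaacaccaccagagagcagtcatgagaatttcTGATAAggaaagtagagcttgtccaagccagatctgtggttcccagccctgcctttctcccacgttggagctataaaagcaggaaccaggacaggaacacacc
Mcpt1: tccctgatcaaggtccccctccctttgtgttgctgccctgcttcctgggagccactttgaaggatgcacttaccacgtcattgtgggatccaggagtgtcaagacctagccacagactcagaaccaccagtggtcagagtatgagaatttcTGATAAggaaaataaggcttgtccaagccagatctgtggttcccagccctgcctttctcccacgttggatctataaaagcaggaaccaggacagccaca
Cma1: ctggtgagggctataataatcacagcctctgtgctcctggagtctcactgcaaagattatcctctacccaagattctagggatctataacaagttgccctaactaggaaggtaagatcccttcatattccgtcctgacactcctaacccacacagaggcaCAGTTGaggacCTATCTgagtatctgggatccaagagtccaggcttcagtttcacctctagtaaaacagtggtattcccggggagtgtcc
Gzmb: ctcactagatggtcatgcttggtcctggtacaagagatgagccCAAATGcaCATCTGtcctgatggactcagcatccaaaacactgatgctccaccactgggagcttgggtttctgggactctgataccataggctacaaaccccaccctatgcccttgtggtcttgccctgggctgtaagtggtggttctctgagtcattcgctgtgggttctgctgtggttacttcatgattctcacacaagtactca
Ctsg: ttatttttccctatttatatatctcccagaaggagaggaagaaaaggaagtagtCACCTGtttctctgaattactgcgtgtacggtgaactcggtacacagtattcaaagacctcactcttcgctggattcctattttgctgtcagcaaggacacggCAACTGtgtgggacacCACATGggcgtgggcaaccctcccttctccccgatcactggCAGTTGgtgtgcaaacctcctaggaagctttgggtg
Cpa3: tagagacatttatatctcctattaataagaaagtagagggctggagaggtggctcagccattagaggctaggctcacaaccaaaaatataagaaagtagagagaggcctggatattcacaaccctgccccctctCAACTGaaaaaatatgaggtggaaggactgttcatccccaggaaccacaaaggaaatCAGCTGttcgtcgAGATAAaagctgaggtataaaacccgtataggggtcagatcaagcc

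Mcpt4 and Mcpt1 share a TGATAA at like places, and their runs are 86.4% identical over 242 aligned bases. Cma1 holds 1 E-box and 1 GATA form, and Cpa3 holds 2 E-boxes and 1 GATA form. In Cpa3 the second E-box and the GATA form also make CTGNNNNNNNNGATA, which 1.91% of all promoters hold. Gzmb has 2 E-boxes, no GATA form and, in lower case, 1 CTGNNNNNNNGATA, which 2.19% hold. Ctsg, where KO lay below Ctrl, holds 4 E-boxes and no GATA form. Over 32851 RefSeq promoters of this length 66.2% hold an E-box and 26.5% one of these GATA forms. Whether these genes hold either motif more often was not tested, as the runs are few and those of Mcpt4 and Mcpt1 are alike. An entry was found for 13 of 16 genes looked for, and Mcpt2, Tpsb2 and Hes1 are named only. A match is a description of letters and not a bound site.

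Outside the proteases, genes of mast cells, basophils and eosinophils were read. Of 23 tested, 2 rose, none fell and 21 did not pass. KO lay above Ctrl in 9 (39.1%, against 6.66% of all genes) and below in none, with a median of 1.22. These are descriptions, since 4 of the 23, with Il6 and Tph1 among them, were tested only through the KO libraries. Cyp11a1, the enzyme that starts steroid synthesis from cholesterol, was at 911, 846 and 70.3 in KO and at 12.5, 14.9 and 0 in Ctrl (log2 5.15 ± 1.07, adjusted p = 0.045). Il6, a cytokine, was at 30, 41.9 and 11.7 in KO against 7.36, 0.438 and 0 (log2 2.29 ± 0.48, adjusted p = 0.0489). In limma's fit of the 6 libraries alone the adjusted p of Cyp11a1 and Il6 was 0.0154 and 0.332. Over the genes of the 24-library filter it was 0.119 and 0.366 there. Alox5 and Hpgds did not pass but had no overlap. Alox5, the lipoxygenase that starts leukotriene synthesis, was at 611, 665 and 103 in KO against 3.83, 15.5 and 73.9 in Ctrl (log2 3.94, adjusted p = 0.0871). Hpgds, a prostaglandin D synthase, was at 237, 205 and 24.1 against 6.32, 4.02 and 9.98 (log2 3.41, adjusted p = 0.372). In both, KO replicate 3 was the KO library nearest to Ctrl. Il1rl1, the receptor for IL-33, was at 1584, 1558 and 146 in KO against 29.9, 139 and 92.8 in Ctrl (log2 3.21). Tph1, which starts serotonin synthesis, was at 119, 154 and 4.3 in KO against 0.0891, 0 and 0 in Ctrl (log2 3.73, adjusted p = 0.0708). Ms4a2, which encodes the IgE receptor's beta chain, was at 438, 435 and 163 in KO against 52.1, 135 and 17 in Ctrl (log2 2.54). Prg2 and Epx, granule proteins of eosinophils, overlapped, with log2 differences of -1.44 and -0.16. Mitf, a transcription factor of mast cells, overlapped as well, at 218, 141 and 34.8 in KO against 80.5, 32.4 and 49.9 in Ctrl. Summed over the 27 genes in the table, the level was 239 to 317 ppm in Ctrl and 1143, 1115 and 392 ppm in the 3 KO libraries. In bulk RNA a few cells with much of a transcript and many cells with a little of it cannot be told apart.

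The adult globin genes rose in every KO library to a similar level. Of 4 tested, 3 rose and Hba-a2 missed the threshold. Hbb-bs, an adult beta globin, was at 37.3, 52.3 and 128 in Ctrl and at 1519, 1708 and 1113 in KO (log2 4.40 ± 0.84, adjusted p = 0.019). Hbb-bt, its neighbour, was at 22.4, 27.6 and 44.9 against 693, 755 and 573 (log2 4.29 ± 0.77, adjusted p = 0.0114). Hba-a1, an alpha globin, was at 21.2, 8.25 and 28.9 against 379, 265 and 210 (log2 3.69 ± 0.73, adjusted p = 0.0266). Hba-a2, whose transcript is 99.8% identical to that of Hba-a1, had a log2 difference of 3.96 (adjusted p = 0.0568), and reads of the 2 genes cannot be assigned with certainty. Summed, globins took 10.3 to 32.7 ppm in Ctrl and 308 to 394 ppm in KO, and KO replicate 3 was again the lowest KO library. It held 308 ppm against 367 and 394 ppm in the other KO libraries, a narrower spread than the summed proteases had. None of 26 tested genes of haem synthesis and the red cell membrane passed. KO lay above Ctrl in 6 (23.1%, against 6.66% of all genes) and below in none. Slc4a1, the anion exchanger band 3, was at 36, 45.1 and 37.9 in Ctrl and at 398, 716 and 554 in KO (log2 3.64 ± 0.84, adjusted p = 0.0851), and it passed in these 6 libraries alone (adjusted p = 0.000153, or 0.00283 over the genes of the 24-library filter). Alas2, the red cell form of the first enzyme of haem synthesis, was at 146, 126 and 132 in KO against 33.5, 17.3 and 45.9 (log2 2.01, adjusted p = 1). Both are transcripts of late red cell precursors. Car1, a carbonic anhydrase of early red cell progenitors, overlapped, at 534, 1349 and 137 in KO against 1199, 627 and 2025 in Ctrl. Among 15 tested regulators of red cells and megakaryocytes none passed, and Gata1, Klf1 and Epor overlapped (log2 0.16, -0.60 and -0.62). Whether the globin transcripts come from sorted cells or from red cell RNA carried along was not tested.

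Hes1, a repressor that Notch signalling induces, was the only one of 18 tested Notch pathway genes to pass. It was at 0.0853, 0.425 and 0 in Ctrl and at 60.6, 70.5 and 15.9 in KO (log2 3.43 ± 0.58, adjusted p = 0.0082). In limma's fit of the 6 libraries over the genes of the 24-library filter its adjusted p was 0.106. In GFP-positive HSC it averaged 17.8 ± 18.0 in Ctrl and 18.1 ± 7.39 in KO (SD, n = 3 each). Of the 18 genes KO lay above Ctrl without overlap in 4 (22.2%, against 6.66% of all genes) and below in none. Jag2, a Notch ligand, did not pass but had no overlap, at 31.7, 68.9 and 59.7 against 17.5, 13.1 and 2 (log2 2.07). The Notch targets Hes5, Nrarp and Myc overlapped, with log2 differences of 0.39, -0.04 and -0.46. Myc overlapped only through 1 library of each genotype.

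Most other rises were of genes low in Ctrl. Kif26b, a kinesin family member, was at 2.59, 3.42 and 4.99 in Ctrl and at 144, 464 and 87.4 in KO (log2 4.59 ± 0.71, adjusted p = 0.00283). Scin, an actin-severing protein, was at 2.59, 14.3 and 9.98 against 306, 473 and 97.7 (log2 4.36 ± 0.93, adjusted p = 0.0491). Frmpd1, Car8, Pdzph1, Dgki and Sowaha rose by log2 differences of 3.43, 2.93, 2.59, 2.42 and 2.39, with KO means of 62.3, 35.7, 47.8, 25 and 23.1 normalised counts. All of them had Ctrl means under 5. These genes and Kif26b met the filter only with the help of the KO libraries compared here, so their rises are descriptions. In limma's fit of the 6 libraries over the genes of the 24-library filter, the adjusted p of Kif26b was 0.0477. There it was 0.276, 0.195, 0.468, 0.3 and 0.232 for Frmpd1, Car8, Pdzph1, Dgki and Sowaha. Cd180 and Osbpl8 were well expressed in Ctrl. Cd180, a Toll-like receptor relative known from B cells, was at 992, 709 and 471 in Ctrl and at 2023, 1977 and 1820 in KO (log2 1.48 ± 0.27, adjusted p = 0.0143). Osbpl8, a lipid transfer protein, was at 1620, 1717 and 1613 against 3427, 4701 and 3384 (log2 1.20 ± 0.26, adjusted p = 0.0491). For these 2 genes KO replicate 3 did not stand apart from the other KO libraries.

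Among the falls, Csf3r, the receptor for G-CSF, which drives neutrophil production, was at 1635, 1811 and 1118 in Ctrl and at 476, 304 and 613 in KO (log2 -1.73 ± 0.30, adjusted p = 0.0101). Adgrl4, an adhesion G protein-coupled receptor of endothelium and stem cells, was at 4790, 3853 and 4936 against 1856, 906 and 2654 (log2 -1.45 ± 0.31, adjusted p = 0.0491). Phldb2, a membrane-binding protein, was at 74.3, 40.8 and 31.9 in Ctrl and at 0.0473, 0 and 2.61 in KO (log2 -3.37 ± 0.60, adjusted p = 0.0114). No KO library reached a Ctrl library for any of the 3.

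Of 29 tested genes of neutrophils and monocytes, Csf3r fell and no other passed. KO lay below Ctrl in 9 (31%), against 6.03% of all genes, and above in 1 (3.45%, against 6.66%), with a median of -0.23. When single libraries were left out this median ran from -0.61 to -0.01. The 9 included proteins of the primary granules, made early in the lineage. Mpo, myeloperoxidase, was at 14803, 24928 and 8143 in Ctrl and at 3358, 2519 and 4497 in KO (log2 -2.10 ± 0.49, adjusted p = 0.0871). Elane, neutrophil elastase, was at 422, 1206 and 481 against 153, 210 and 143 (log2 -1.89). Prtn3, proteinase 3, was at 696, 729 and 441 against 233, 126 and 120 (log2 -1.96). These 3 did not pass over 24 libraries. In the 6 alone the adjusted p of Mpo, Elane and Prtn3 was 0.0123, 0.0404 and 0.0123, but 0.0989, 0.154 and 0.0663 over the genes of the 24-library filter. Gm11505, annotated on the other strand over Mpo, moved with it (log2 -2.18), and reads of the 2 cannot be told apart without the strand setting. Gfi1 and Cebpa, transcription factors of the lineage, were also lower, with log2 differences of -1.79 and -1.76. Camp, Ngp, Ltf and Lcn2, proteins of the later granules, overlapped between genotypes, at log2 differences of 1.44, 1.06, 0.99 and 1.06. Summed over the 29 genes the level was 2200 to 3844 ppm in Ctrl and 1156 to 1517 ppm in KO. Most of that gap was Mpo: the other 28 genes summed to 968, 980 and 1026 ppm in Ctrl and to 734, 1187 and 666 ppm in KO, which overlap.

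Of 39 tested cytokine receptor genes, Csf3r fell and no other passed. Il1r1, the IL-1 receptor, was at 300, 296 and 371 in Ctrl and at 75.9, 38.1 and 106 in KO (log2 -2.18 ± 0.51, adjusted p = 0.0871). Il6ra, the IL-6 receptor alpha chain, was at 451, 194 and 318 against 39.7, 97.2 and 73.6 (log2 -2.13 ± 0.64, adjusted p = 0.418). In the 6 libraries alone their adjusted p was 0.025 and 0.0459, but 0.0989 and 0.154 over the genes of the 24-library filter. The median over this list was -0.19, with KO below Ctrl in 5 (12.8%) and above in 6 (15.4%), against 6.03% and 6.66% of all genes.

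**Figure D4:**
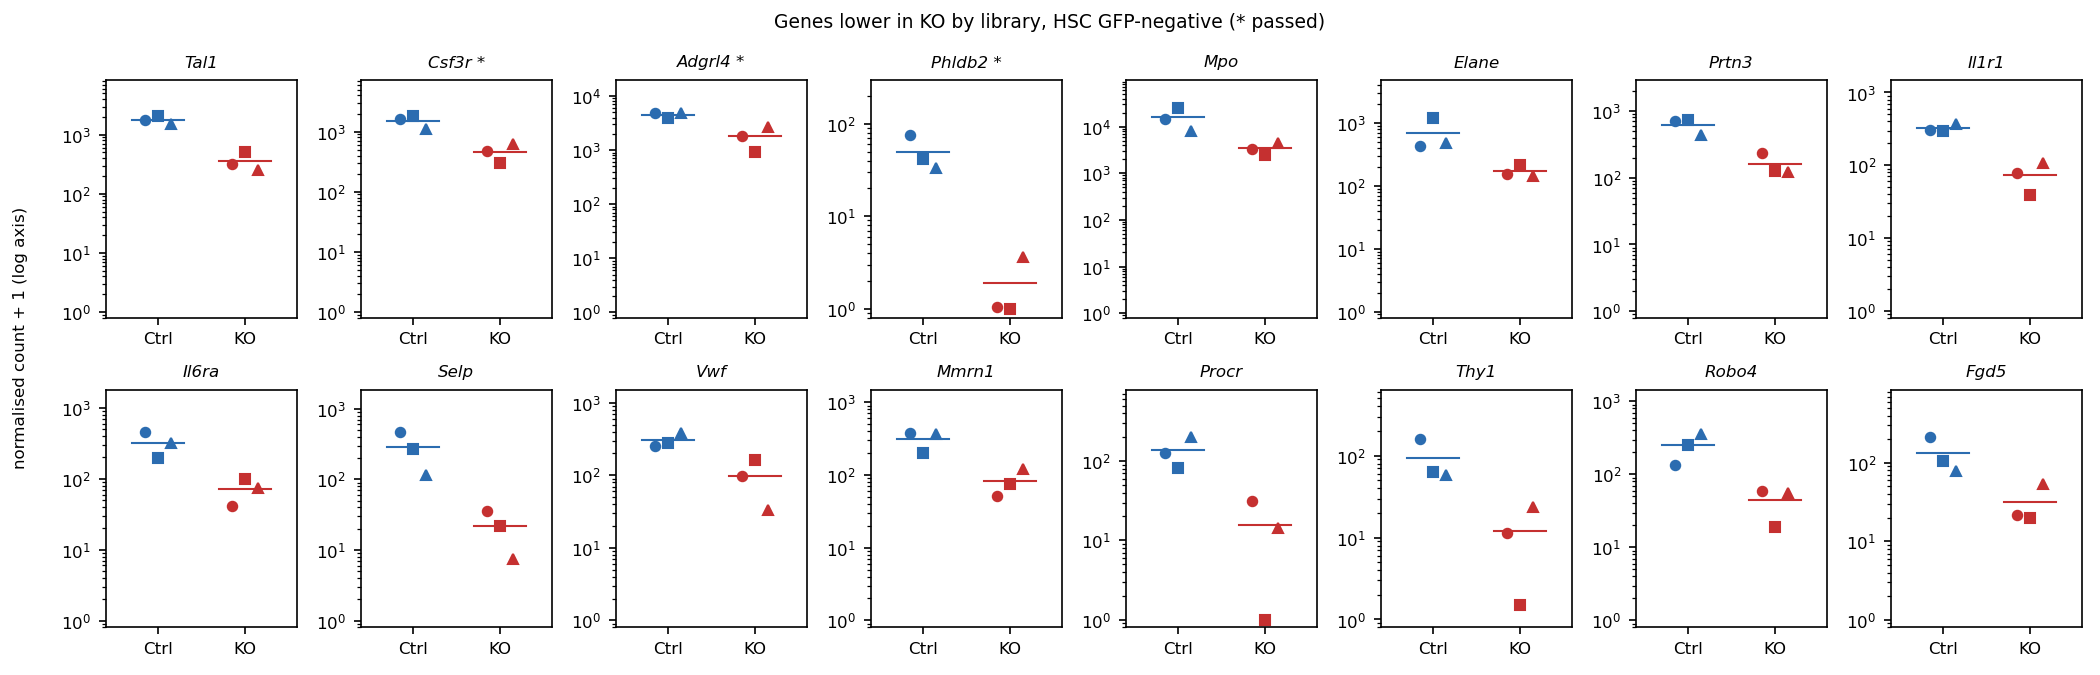
Normalised counts plus 1 (log axis) of Tal1 and 15 other genes lower in KO, in the 3 Ctrl (blue) and 3 KO (red) libraries of GFP-negative HSC, with replicates 1 to 3 as circle, square and triangle, lines as means and an asterisk for genes that passed. In all 16 the KO libraries lie below the Ctrl libraries, and Csf3r, Adgrl4 and Phldb2 passed.

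Of 34 tested genes of the stem cell surface and quiescence none passed. KO lay below Ctrl in 10 (29.4%, against 6.03% of all genes) and above in 4 (11.8%, against 6.66%), and the median was -0.57. When single libraries were left out this median ran from -0.61 to -0.13, the latter without Ctrl replicate 3. The summed level overlapped, at 2484 to 3351 ppm in Ctrl and 2786 to 3166 ppm in KO. Procr, the protein C receptor (CD201), was at 125, 81.5 and 198 in Ctrl and at 30.6, 0 and 13.3 in KO (log2 -3.27 ± 1.14, adjusted p = 0.821). Thy1, a surface protein low on mouse stem cells, was at 160, 62.1 and 57.9 against 10.2, 0.491 and 22.5 (log2 -2.86 ± 0.94). Robo4, a guidance receptor, was at 134, 255 and 360 against 57.8, 18 and 54.4 (log2 -2.45 ± 0.89). Fgd5, an exchange factor used as a stem cell marker, was at 214, 105 and 76.9 against 20.4, 18.7 and 52.9 (log2 -1.97 ± 0.89). None of these 4 passed in the 6 libraries alone either (adjusted p = 0.0902, 0.144, 0.0603 and 0.233). Other stem cell surface genes overlapped: Slamf1 (CD150), Cd48, Cd34 and Kit had log2 differences of 0.29, 0.49, -0.50 and 0.22. The cell cycle inhibitors Cdkn1a and Cdkn1b lay above Ctrl in all KO libraries (log2 1.81 and 0.71) and did not pass. Of 26 tested stem cell transcription factors none passed, KO lay below Ctrl in 6 (23.1%, against 6.03% of all genes) and above in 3 (11.5%, against 6.66%), and the median was -0.35. Nkx2-3, a homeobox factor, was at 63.1, 157 and 47.9 in Ctrl and at 10.3, 5.66 and 17.8 in KO (log2 -2.50 ± 0.92). Hoxa9 and Hoxa7 were lower in all KO libraries (log2 -0.84 and -0.76), while Hlf, Mecom, Meis1 and Runx1 overlapped, with log2 differences of -0.72 to 0.06.

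None of 19 tested megakaryocyte and platelet genes passed, and KO lay below Ctrl in 5 (26.3%, against 6.03% of all genes) and above in 1 (5.26%, against 6.66%). Selp, P-selectin of platelet granules and endothelium, was at 466, 269 and 114 in Ctrl and at 35.2, 20.6 and 6.54 in KO (log2 -3.51 ± 1.13, adjusted p = 0.609). In the 6 libraries alone its adjusted p was 0.0184, but 0.108 over the genes of the 24-library filter. Vwf, von Willebrand factor, was at 250, 277 and 378 against 98.4, 162 and 31.9 (log2 -1.82 ± 0.78). Mmrn1, multimerin of platelet granules, was at 371, 202 and 363 against 49.9, 74 and 120 (log2 -1.92 ± 0.91). Pf4, Gp9 and Itga2b, which are also expressed in megakaryocytes, overlapped, with log2 differences of 0.43, 0.05 and -0.24. The 29 tested adhesion and homing genes had a median of -0.01 and 2 falls, among them Adgrl4. Itga4, an integrin chain, was at 7654, 9963 and 5606 in KO against 3653, 3396 and 3415 in Ctrl (log2 1.11 ± 0.25, adjusted p = 0.0798). Of 8 tested genes of stroma and endothelium none passed, with a median of -0.08. Their defining genes Cdh5, Kdr and Col1a1 were under the limit for testing.

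Of 22 tested lymphoid priming genes none rose and 1 fell. KO lay above Ctrl in 5 (22.7%, against 6.66% of all genes) and below in 2 (9.09%, against 6.03%), and the median was 0.13. Rag2 was at 48.4, 30 and 4.99 in Ctrl and at 75.9, 68 and 107 in KO (log2 1.77 ± 0.52, adjusted p = 0.391, and 0.464 in the 6 libraries alone). Rag1, its partner, was at 12.5, 2.23 and 2.99 against 20.45, 55.1 and 24 (log2 1.93, adjusted p = 0.932). Both lay above Ctrl in every KO library, in cells sorted as negative for the Rag2 reporter. Dntt, which adds bases at antigen receptor joins, overlapped, at 136, 262 and 241 in Ctrl against 275, 97.9 and 336 in KO (log2 0.03). Flt3 overlapped, at 597, 759 and 1033 in Ctrl and at 369, 177 and 796 in KO (log2 -1.05 ± 0.40). Il7r, the IL-7 receptor, was at 0.0994, 4.04 and 0 in Ctrl and at 6.86, 32.9 and 3.74 in KO (log2 1.50 ± 0.85). Ikzf1, a factor needed by all lymphoid lineages, was at 4166, 4271 and 3725 in KO against 3027, 2688 and 2398 in Ctrl (log2 0.59 ± 0.23, adjusted p = 1). The 9 tested B lineage and 19 tested T and NK lineage genes had no member that passed, with medians of 0.11 and 0.21.

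Of the remaining lists none had a gene that passed. Medians were 0.12 over 38 cell cycle genes, -0.17 over 17 genes of dendritic cells and antigen presentation and 0.25 over 26 interferon response genes. They were 0.48 over 13 immediate early and stress genes and -0.19 over 14 mitochondrially encoded genes. Among cell cycle genes KO lay above Ctrl in 2 (5.26%) and below in 1 (2.63%), no more often than over all genes. Of the 26 interferon response genes 19 were higher in KO and 7 lower. KO lay above Ctrl in 4 of them (15.4%) and below in 3 (11.5%), against 6.66% and 6.03% of all genes. Usp18 and Ifi47, both among the 4, had log2 differences of 1.79 and 0.84 and did not pass. Ifitm1, an interferon-induced membrane protein, had the lowest value of this list, at 376, 257 and 296 in KO against 897, 777 and 937 in Ctrl. Its log2 difference was -1.49 ± 0.44 (adjusted p = 0.401). In the 6 libraries alone its adjusted p was 0.0108, or 0.043 over the genes of the 24-library filter. Among immediate early and stress genes KO lay above Ctrl in 1 (7.69%) and below in 2 (15.4%). Egr1, an immediate early factor, was the 1 above, at 389, 274 and 186 in KO against 48.4, 49.3 and 148 in Ctrl (log2 1.87 ± 1.04). Dusp1 lay below, at 63.4, 29.7 and 40.9 in KO against 110, 65.7 and 125 in Ctrl (log2 -1.11 ± 1.12).

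The same genes were then read in the other sorted populations. Their libraries are not these 6, but each carries a number in the labels that it shares with 1 of them, so they may come from the same marrow. Of the 22 rises, 4 also passed and were higher in GFP-positive HSC, 3 in GFP-negative LMPP and 3 in GFP-positive LMPP, where 51, 4 and 5 genes rose in all (0.315, 0.0247 and 0.0308% of tested genes). In either direction 0.432, 0.0555 and 0.0432% of tested genes passed there. The globins Hbb-bs and Hba-a1 passed in all 4 populations, with log2 differences of 4.78 and 4.17 in GFP-positive HSC, 4.64 and 4.07 in GFP-negative LMPP and 5.58 and 4.16 in GFP-positive LMPP. Gzmb passed in GFP-positive HSC as well (log2 5.97, adjusted p = 5.23e-05), where Mcpt4 did not (log2 0.90). Mcpt4 passed in GFP-negative LMPP (log2 4.65, adjusted p = 0.0362), where Gzmb did not (log2 0.97). The values of Cma1 and Tpsb2 were 2.98 and 0.25 in GFP-positive HSC and 3.68 and 3.56 in GFP-negative LMPP, and none of these passed. Hes1, Mcpt2 and Mcpt1 had log2 differences between -0.02 and 0.48 in the 3 other populations. Csf3r was at -0.68, -0.74 and -0.13 and Cd180 at 0.00, -0.35 and -0.10, in the same order, and did not pass. For Tal1 itself the log2 differences were -1.02, -1.32 and -3.82.

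**Figure D5:**
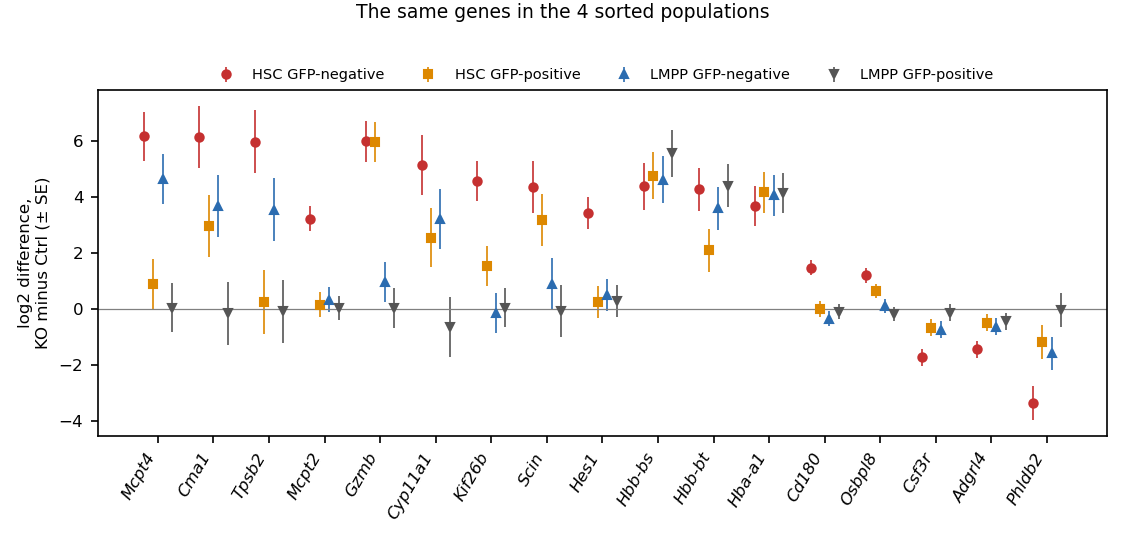
Log2 difference, KO minus Ctrl (± SE from the model), of 17 genes that passed in GFP-negative HSC (red circles), read in HSC GFP-positive (orange squares), LMPP GFP-negative (blue triangles) and LMPP GFP-positive cells (grey triangles). Hbb-bs, Hbb-bt and Hba-a1 lie between 2.10 and 5.58 in all 4 populations, while Hes1, Mcpt2 and Cd180 lie near 0 in the 3 others.

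Whether an effect differed between populations was tested directly. For genotype and reporter gate within HSC, 1 of 16215 genes passed limma's interaction test (0.00617%), and it was none of the 26. The smallest adjusted p among these was that of Mcpt2, whose KO effect was 3.08 larger on the log2 scale in GFP-negative than in GFP-positive HSC (adjusted p = 0.163). Mcpt2 was tested only through the KO GFP-negative libraries, so this size is a description, and Mcpt4, which was not, came next at 5.28 (adjusted p = 0.344). For genotype and CD135 gate within GFP-negative cells no gene passed (0%), with 384 genes at an unadjusted p under 0.05. Gzmb, Kif26b, Cd180 and Mcpt2 had the smallest adjusted p of the 26 there, 0.229 each, with effects larger in HSC by 5.03, 4.74, 1.83 and 2.91. Of these Kif26b and Mcpt2 were tested only through the KO libraries of HSC. The data therefore do not show at this threshold that any of the 26 effects is particular to GFP-negative HSC.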

How the data were processed

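RNA of 24 libraries (8 groups, n = 3) had been sequenced from sorted mouse bone marrow. The submitters' processing notes name Trimmomatic 0.33, HTSeq 0.6.1, edgeR without a version, and the build mm10. The aligner, the edgeR function and the strand setting are not given in the sources used here. Values deposited by the authors are a signal, normalised counts per gene. Of these only 0.594% was within 0.001 of a whole number, so depth in reads is unknown and no count model was fitted. Groups came from the labels. Gene positions came from GENCODE M21 (GRCm38) for 16978 of 17149 genes and promoter sequences from RefSeq.

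Genes with at least 1 ppm of the library total in at least 3 libraries were kept (16215). On log2(value + 4.1), where 4.1 is 0.5 ppm of the mean library total, limma 3.58.1 in R 4.3.3 fitted 8 group means to all libraries, with the prior variance following mean level (residual degrees of freedom 16, prior 9.53). Genes are called passing, risen or fallen at a Benjamini-Hochberg adjusted p under 0.05. Both interactions were tested in the same fit. Pooling the spread over groups that differ in it makes these p-values approximate. On simulated data, false calls exceeded the share that the threshold allows. The simulation took the SD of 3 libraries in each group as the true spread and did not vary the pooling. What caused that excess was therefore not tested.

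The members, gene lists and tests were chosen with earlier results of these data known, and counts over lists are descriptions without a test. Genes were named when they passed, when they were among the list members of largest difference without overlap, or when they belonged to a fixed set around TAL1. Other list members, such as Prg2, Camp and Hoxa9, were chosen after their values were seen. The GATA forms were extended after the sequences had been read. Some genes taken by this rule stay unreported, though they are part of every count. Alternatives covered the added constant, filter, scaling, weights, replicate block, libraries and leaving out single libraries.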

Additional observations from a re-analysis of the deposited data

Results flagged for a closer look

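Bcl11b, a transcription factor of T cell commitment, had a KO effect that differed between the reporter gates of HSC. It was listed at 0.0898, 0 and 0 in Ctrl and at 0.0501, 0 and 0.367 in KO in GFP-negative HSC, where the log2 difference was 0.04. In GFP-positive HSC it averaged 134 ± 53.2 in Ctrl and 2.02 ± 2.41 in KO (SD, n = 3 each), with a log2 difference of -4.49. The difference between these effects was 4.52 by limma's interaction test (adjusted p = 0.00149). GFP-negative cells thus gave no signal in either genotype, and the whole difference came from GFP-positive cells. It was the 1 gene that passed this interaction. The 3 Ctrl libraries of GFP-positive HSC had 13583, 11982 and 14455 genes above 1. The 6 libraries of GFP-negative HSC had 15226 to 15957. Replicates of Ctrl GFP-positive HSC correlated at Pearson's r of 0.78 to 0.865 on the log2 scale.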

How the results depend on the processing

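All 26 genes kept their direction wherever they were tested. The count of 26 was 13 with a constant of 0.1 ppm, 40 with 2 ppm, 25 without a filter, 12 with a 5 ppm filter, 26 with size factors, 40 with quantile normalisation and 174 with sample weights. It was 52 without the 2 libraries with under 13000 genes above 1, both of other groups, 3 in the 12 HSC libraries alone and 53 in the 6 libraries alone, with or without the replicate block. In an alternative chosen after seeing the data, the 6 libraries with the genes of the 24-library filter, it was 15, with 5 of the 26. Leaving out single libraries gave 2 to 43, and Gzmb and Mcpt4 passed in each of those 6 fits. The log2 difference of Tal1 in HSC GFP-negative cells passed with quantile normalisation (-2.39), with sample weights (-2.43) and, at -2.34, without the 2 libraries and in all 3 fits of the 6 libraries. It ranged from -2.62 to -2.11 when single libraries were left out and did not pass there. The genotype by reporter interaction gave 0 genes with 0.1 ppm, 2 with 2 ppm, 0 with the 5 ppm filter, 0 with weights and 0 to 18 when single libraries were left out. The highest value was reached without Ctrl HSC GFP-positive replicate 3. The genotype by CD135 gate interaction gave 1 gene with 2 ppm, 14 with weights and 0 to 2 when single libraries were left out. Causes of these shifts were not tested. The replicate block in all 24 libraries gave 35 genes, of which 25 were among the 26. Same-numbered KO and Ctrl libraries deviated together with correlations of 0.118, -0.0134 and 0.0748, and unlike-numbered ones with -0.105 to 0.0152. The labels do not state what the numbers stand for, and they were not taken as pairs in the main fit. Reads per library are unknown, so no limit of detection can be given for genes listed at 0.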

Other observations

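Over all tested genes, 61 had a mean of at least 20 ppm in 1 genotype, no overlap and an unadjusted p under 0.01, 37 of them higher and 24 lower in KO. Of the 61, 15 had passed and others are list members given with the results. The genes described here are in no list and did not pass. Prkcb, a protein kinase C, was at 338, 287 and 37.6 in KO against 11.3, 4.63 and 2 in Ctrl (log2 4.10 ± 1.08, adjusted p = 0.198). It followed the library order of the mast cell proteases, lowest in KO replicate 3. Tent5c, a poly(A) polymerase, was at 272, 315 and 272 in KO against 21.2, 82.6 and 0 in Ctrl (log2 3.80 ± 0.96, adjusted p = 0.159). It was alike in the 3 KO libraries, and its log2 differences in the other populations were 4.41, 4.04 and 4.29.

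On the lower side, Tgm2, a transglutaminase, was at 56.6, 16.1 and 22.4 in KO against 181, 159 and 194 in Ctrl (log2 -2.51 ± 0.90, adjusted p = 0.888). Maged1, a MAGE family adaptor, was at 81.6, 87.5 and 88.3 against 328, 289 and 491 (log2 -2.02 ± 0.61, adjusted p = 0.444). Sdc3, a heparan sulfate proteoglycan, was at 73.6, 27.7 and 33 against 170, 148 and 396 (log2 -2.28 ± 0.65, adjusted p = 0.332). For Maged1 the 3 KO libraries nearly coincided. In the 6 libraries alone the adjusted p of Tgm2, Maged1 and Sdc3 was 0.0459, 0.0122 and 0.0763, and over the genes of the 24-library filter it was 0.154, 0.0513 and 0.241.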
